A study of Mus musculus with 14 samples.

Results

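The genes described here are the BMP ligands Bmp2, Bmp4 and Bmp7, the TGF-β ligands Tgfb1, Tgfb2 and Tgfb3, the activin subunit gene Inhba and the BMP-responsive genes Id1, Id2 and Id3. They were taken by symbol from the deposited expression table, where all 10 were found among 35275 genes. Bmp7 was picked because of its level across the lines, so its values are given as a description with no test. The other 9 belong to the same ligand and target families and were tested.

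RNA was sequenced from 5 mouse ovarian tumor lines after 5 days of growth in suspension as tumorspheres in PromoCell XF medium. KMF cells (n = 3) are C57Bl6 cells obtained by passaging ID8 cells in mice, and carry copy gains that include Myc and Ptk2, the gene of focal adhesion kinase (FAK). FAK KO cells (n = 3) are a single clone, KT13, made from KMF cells by CRISPR/Cas9 targeting of Ptk2. FAK-WT cells (n = 3) and FAK-R454 cells (n = 2) are KT13 cells with lentiviral, CMV-driven GFP-FAK, either wild type or with the kinase inactivated, and β-catenin ΔGSK cells (n = 3) are KT13 cells with a viral β-catenin that lacks the GSK3β phosphorylation sites. The edited Ptk2 alleles of KT13 are therefore shared by every line but KMF, and each genotype is represented by 1 line.

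BMPs, TGF-βs and activins are secreted dimers that bring together type I and type II serine/threonine kinase receptors. BMP receptors mostly act through Smad1, Smad5 and Smad9, and TGF-β and activin receptors through Smad2 and Smad3, each with Smad4 as the common partner. Id genes are classic direct targets of BMP signaling, and their proteins bind E proteins, a class of bHLH transcription factors, and keep them from DNA. In the ovary these ligands are known for their part in follicle growth, and in ovarian tumors for their part in invasion and stem-like growth.

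Each library held between 25390558 and 35289859 fragments on genes. Ptk2 mRNA was between 17.6 and 20.5 FPKM in FAK KO libraries, 42.3 and 45.4 FPKM in FAK-WT, 59.2 and 65.5 FPKM in FAK-R454, 15.1 and 15.9 FPKM in β-catenin ΔGSK and 23.9 and 24.8 FPKM in KMF libraries. These values do not separate edited from re-expressed transcripts. Ctnnb1, which encodes β-catenin, was between 207.3 and 223.3 FPKM in β-catenin ΔGSK and between 139.5 and 148.5 FPKM in FAK KO libraries. It was between 195.4 and 206.9 FPKM in KMF, 127.3 and 129.6 FPKM in FAK-WT and 133.1 and 139.2 FPKM in FAK-R454 libraries. The Ctnnb1 level of β-catenin ΔGSK cells was thus close to that of KMF cells, which lack the construct. Of 8 mesothelial or ovarian surface epithelial markers, 6 or 7 had a mean above 1 FPKM in each line, and Krt7 was at or below 0.420 FPKM in every library. Single markers differed between lines, with mean Upk3b at 31.6 FPKM in FAK-R454 against 4.03 FPKM in FAK KO cells, Wt1 at 226.8 FPKM in β-catenin ΔGSK against 97.8 FPKM in FAK KO cells, and Krt8 at 568.5 FPKM in FAK-WT, 180.9 FPKM in β-catenin ΔGSK and 317.3 FPKM in FAK KO cells, and their part in the results was not tested. The summed level of 5 leukocyte markers was at most 0.0605 FPKM, and that of Pax8 and Epcam at most 0.684 FPKM. Of the endothelial markers, Cdh5 and Kdr were at most 0.0432 FPKM, Pecam1 ran from 0.168 to 1.27 FPKM and was lowest in β-catenin ΔGSK cells, and Tek ran from 6.29 to 28.8 FPKM, lowest in β-catenin ΔGSK and highest in KMF cells. The libraries are bulk RNA, in which fewer cells of a kind and less RNA per cell cannot be told apart. FPKM (fragments per kilobase of transcript, scaled to library size) is a level per length, so levels of different genes can be compared within a library.

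Lines were compared on the log2(FPKM + 0.1) scale with limma. A gene passed the test when its Benjamini-Hochberg adjusted p over all genes of the comparison was under 0.05, and SE is the standard error of a log2 fold change. On this scale the change of a gene with few fragments comes out too small. The study's methods describe the KMF samples as independent and taken at different passages, and those of the other lines as replicate RNA samples with no word on separate cultures, so for these p may measure technical spread only.

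In β-catenin ΔGSK cells all 3 Id genes, Bmp2 and Tgfb3 rose and Inhba, Bmp4 and Tgfb1 fell relative to FAK KO cells. Id3 reached a mean of 145.8 FPKM, the highest level of any of the 10 genes in any line. FAK-WT, FAK-R454 and KMF cells shared higher Bmp4, Tgfb1 and Tgfb3 than FAK KO cells, each of these 3 comparisons using the same FAK KO libraries. Tgfb2 passed the test in none of the 4 comparisons with FAK KO cells. The plot of FPKM by line shows every library of the 10 genes.

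**Figure D1:**
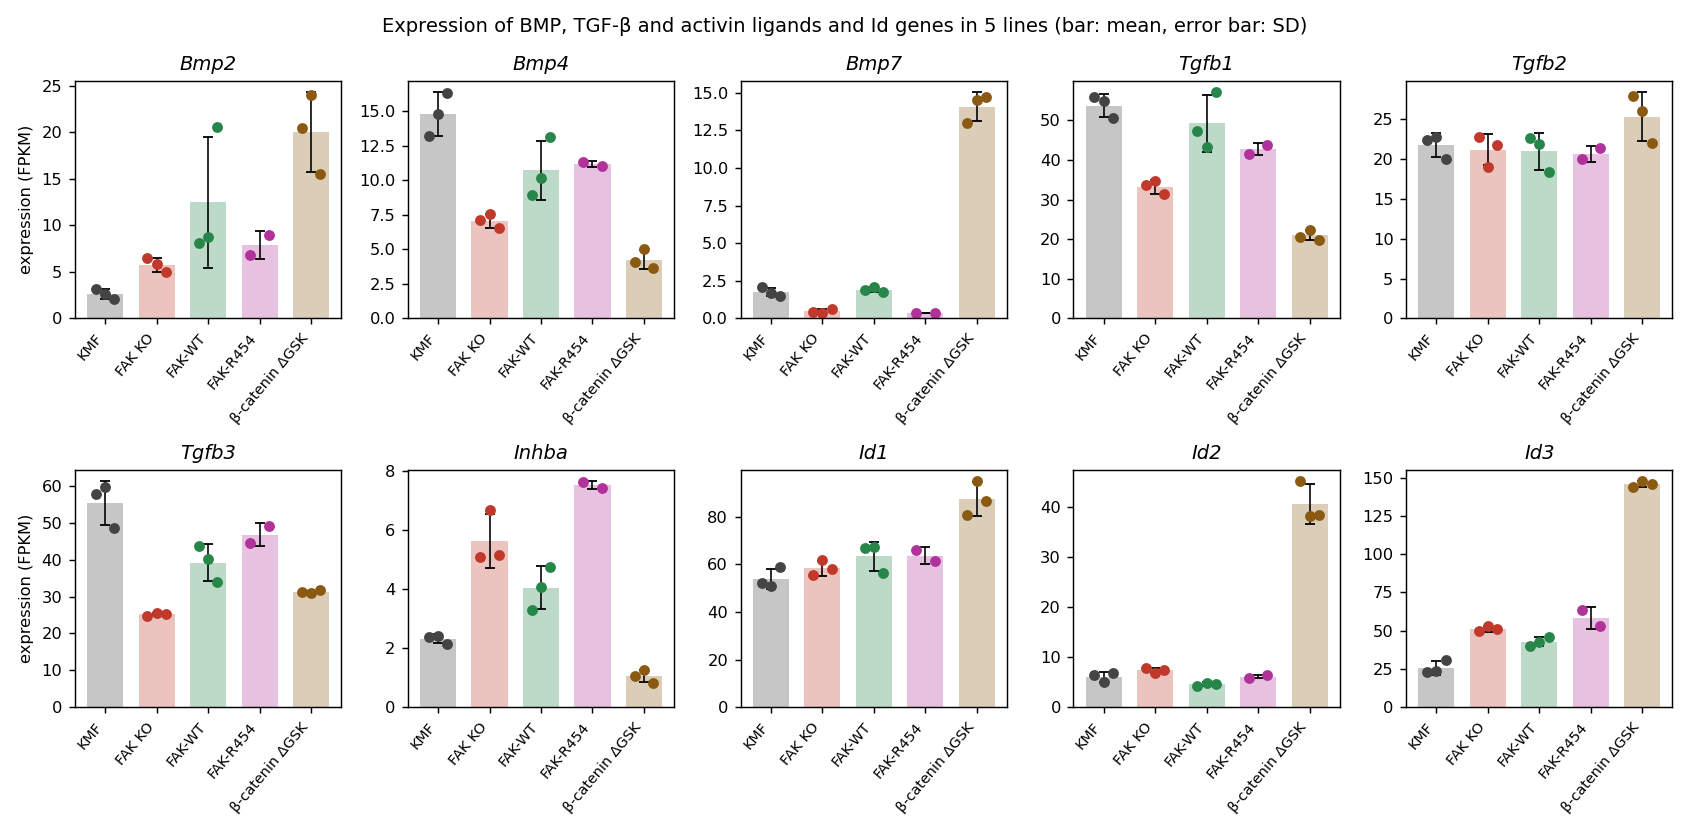
Expression (FPKM, linear axes from 0) of the 10 genes in the 5 lines, with each point a library, each bar the mean and each error bar the SD (n = 3 per line, 2 for FAK-R454). The β-catenin ΔGSK libraries lie above every other library for Bmp7, Id1, Id2 and Id3 and below every other library for Bmp4, Tgfb1 and Inhba, while for Tgfb2 each line overlaps its neighbour in the order of means and only the FAK-R454 and β-catenin ΔGSK libraries are apart.

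In β-catenin ΔGSK over FAK KO cells, 5 of the 9 tested genes were higher and 3 lower, where 23.7% of 11915 genes were higher and 34.4% lower (58.1% in all). Past a 2-fold difference, 3 were higher and 1 lower, against 5.13% and 6.99% of all genes, and the libraries of 8 did not overlap, against 64.2%. In FAK-WT over FAK KO cells, 4 were higher and 3 lower, where 15.6% of 11841 genes were higher and 25.2% lower (40.8% in all). These 7 calls became 4 without FAK KO replicate 3. None of these 7 was past a 2-fold difference, as 2.91% and 1.71% of all genes were, and 7 did not overlap, against 56.1%. In FAK-R454 over FAK KO cells, 4 were higher and 0 lower, where 9.78% of 11818 genes were higher and 9.89% lower (19.7% in all). The 4 calls became 2 without FAK KO replicate 3 or without either FAK-R454 replicate. Again 0 were past a 2-fold difference, against 1.93% and 0.812%, and 7 did not overlap, against 55.1%. In KMF over FAK KO cells, 3 were higher and 3 lower, where 23.1% of 11893 genes were higher and 28.7% lower (51.8% in all). Here 2 higher and 3 lower genes were past a 2-fold difference, against 3.97% and 4.04%, and 6 did not overlap, against 60.8%. No test of these shares was made. The median log2 fold change of the 9 genes was 0.31 in β-catenin ΔGSK, 0.11 in FAK-WT, 0.36 for the FAK-R454 line and -0.12 in KMF cells, beside medians of -0.09, -0.08, -0.03 and -0.05 over all genes.

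**Figure D2:**
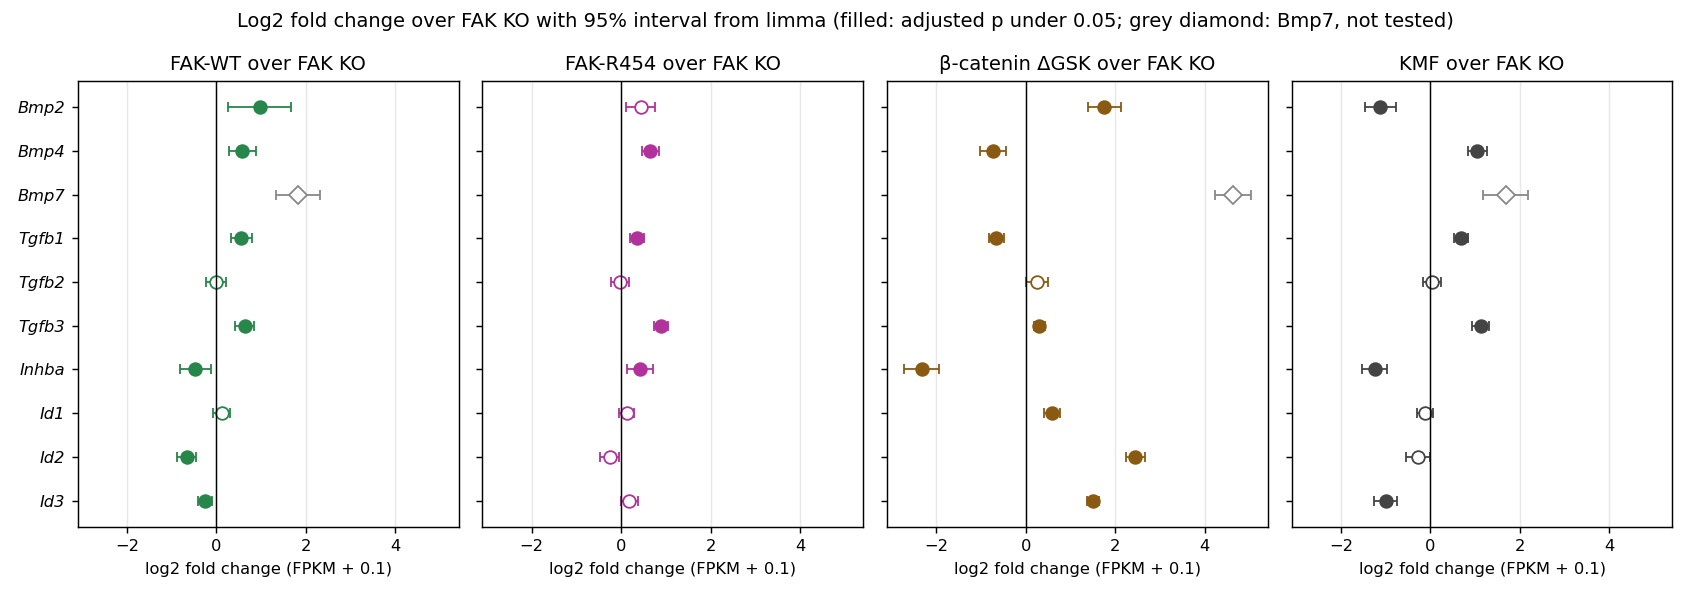
Log2 fold change (FPKM + 0.1) of each gene over FAK KO cells in 4 lines, with 95% intervals from limma, filled points for an adjusted p under 0.05 and grey diamonds for Bmp7, which was not tested and was below the FPKM filter in FAK-R454 cells. The largest tested changes were those of Id2 at 2.45 and Inhba at -2.33 in β-catenin ΔGSK cells, and the Tgfb2 points lie between -0.03 and 0.26.

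Bmp7 (ENSMUSG00000008999, mm10 chromosome 2, 172868012 to 172940321, minus strand) encodes a BMP of the 60A subgroup that is best known from kidney and eye development. Its level was 12.99, 14.5 and 14.7 FPKM in the β-catenin ΔGSK libraries, against 0.453, 0.355 and 0.642 FPKM in FAK KO cells. FAK-WT cells had 1.89, 2.11 and 1.77 FPKM, KMF cells 2.06, 1.68 and 1.52 FPKM, and FAK-R454 cells 0.343 and 0.387 FPKM. The libraries thus fell into 3 levels, with β-catenin ΔGSK at the top, FAK-WT and KMF overlapping in the middle and FAK KO and FAK-R454 overlapping at the bottom. These values rested on between 34 and 1588 fragments a library. The fitted log2 difference from FAK KO cells was 4.63 in β-catenin ΔGSK cells, 1.82 in FAK-WT cells and 1.69 in KMF cells. Over the alternative settings, left-out libraries included, it ran from 3.35 to 4.88, from 0.98 to 2.01 and from 0.89 to 1.88.

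Over the 14 libraries and 12255 genes compared, 3 genes had a centred log2 profile closest to that of Bmp7, by root mean square difference. Fmnl2, a formin that builds actin filaments, differed from Bmp7 by 0.432 log2 units, and its mean was 10.03 FPKM in β-catenin ΔGSK, 1.74 in FAK-WT, 0.806 in KMF, 0.418 in FAK-R454 and 0.347 FPKM in FAK KO cells. Wnt4, a Wnt ligand, differed by 0.484 and stood at 245.2 FPKM in β-catenin ΔGSK cells against 13.8 in FAK KO and 7.39 in FAK-R454 cells. Notum, a secreted enzyme that inactivates Wnt proteins, also differed by 0.484, with 14.2 FPKM in β-catenin ΔGSK and 0.821 FPKM in FAK KO cells. These are ranks of likeness over libraries that Bmp7 was picked from, and no test was made.

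Bmp2 (ENSMUSG00000027358, chromosome 2, 133552159 to 133562885, plus strand) encodes a ligand that signals mainly through the type I receptors Bmpr1a and Bmpr1b. It was at 20.4, 24.0 and 15.5 FPKM in β-catenin ΔGSK cells and at 6.48, 5.90 and 4.97 FPKM in FAK KO cells. The libraries did not overlap, and Bmp2 rose by 1.76 on the log2 scale (SE 0.16, adjusted p = 2.95e-05, limma). In KMF cells it was at 3.13, 2.66 and 2.11 FPKM, below every FAK KO library, and fell by 1.12 (SE 0.15, adjusted p = 4.65e-04). FAK-R454 cells had 6.87 and 8.93 FPKM, just above the FAK KO range, and the log2 fold change of 0.44 did not pass the test (SE 0.14, adjusted p = 0.0645).

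The FAK-WT libraries stood at 8.07, 8.80 and 20.5 FPKM for Bmp2. The third of them reached the β-catenin ΔGSK range and the other two lay close to the FAK-R454 libraries. The log2 fold change over FAK KO cells was 0.97 (SE 0.31, adjusted p = 0.0357, limma). Without FAK-WT replicate 3 it was 0.54 (adjusted p = 0.01003), and without each FAK KO replicate in turn the adjusted p was between 0.0753 and 0.108, so this call for Bmp2 depended on the libraries used.

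Bmp4 (ENSMUSG00000021835, chromosome 14, 46383520 to 46390669, minus strand) encodes the closest relative of Bmp2 among the ligands. Bmp4 was highest in KMF and lowest in β-catenin ΔGSK cells, the lines where Bmp2 was lowest and highest. The Bmp4 level was 13.2, 14.8 and 16.3 FPKM in KMF cells and 4.10, 5.00 and 3.64 FPKM in β-catenin ΔGSK cells. FAK KO cells had 7.13, 7.54 and 6.51 FPKM. None of these 3 lines overlapped another. Bmp4 rose by 1.05 in KMF cells (SE 0.10, adjusted p = 4.72e-05, limma) and fell by 0.73 in β-catenin ΔGSK cells (SE 0.12, adjusted p = 0.00113). FAK-WT cells, at 8.93, 10.1 and 13.1 FPKM, and FAK-R454 cells, at 11.3 and 11.03 FPKM, overlapped each other and lay between KMF and FAK KO cells. Over FAK KO cells, Bmp4 rose by 0.58 in FAK-WT (SE 0.13, adjusted p = 0.0109) and by 0.66 in FAK-R454 cells (SE 0.09, adjusted p = 0.00197).

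Shares of the mRNA level were taken among Bmp2, Bmp4 and Bmp7 alone. Other BMP ligands are left out of these shares, such as Bmp6, at a mean of 18.2 FPKM in β-catenin ΔGSK cells, and Bmp8a. The summed FPKM of Bmp2, Bmp4 and Bmp7 ran from 12.1 to 14.1 in FAK KO libraries and from 33.8 to 43.6 in β-catenin ΔGSK libraries. Bmp4 made up 71.7% to 81.8% of the sum in KMF cells, 50.7% to 54.7% in FAK KO cells and 10.8% to 11.5% in β-catenin ΔGSK cells. Bmp7 made up 33.4% to 43.5% in β-catenin ΔGSK cells and at most 11.2% in any library of the other lines. Bmp2 took 10.6% to 17.0% in KMF cells and between 37.05% and 58.01% in the libraries of the other 4 lines. The shares of Bmp7 carry its selection and were not tested.

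**Figure D3:**
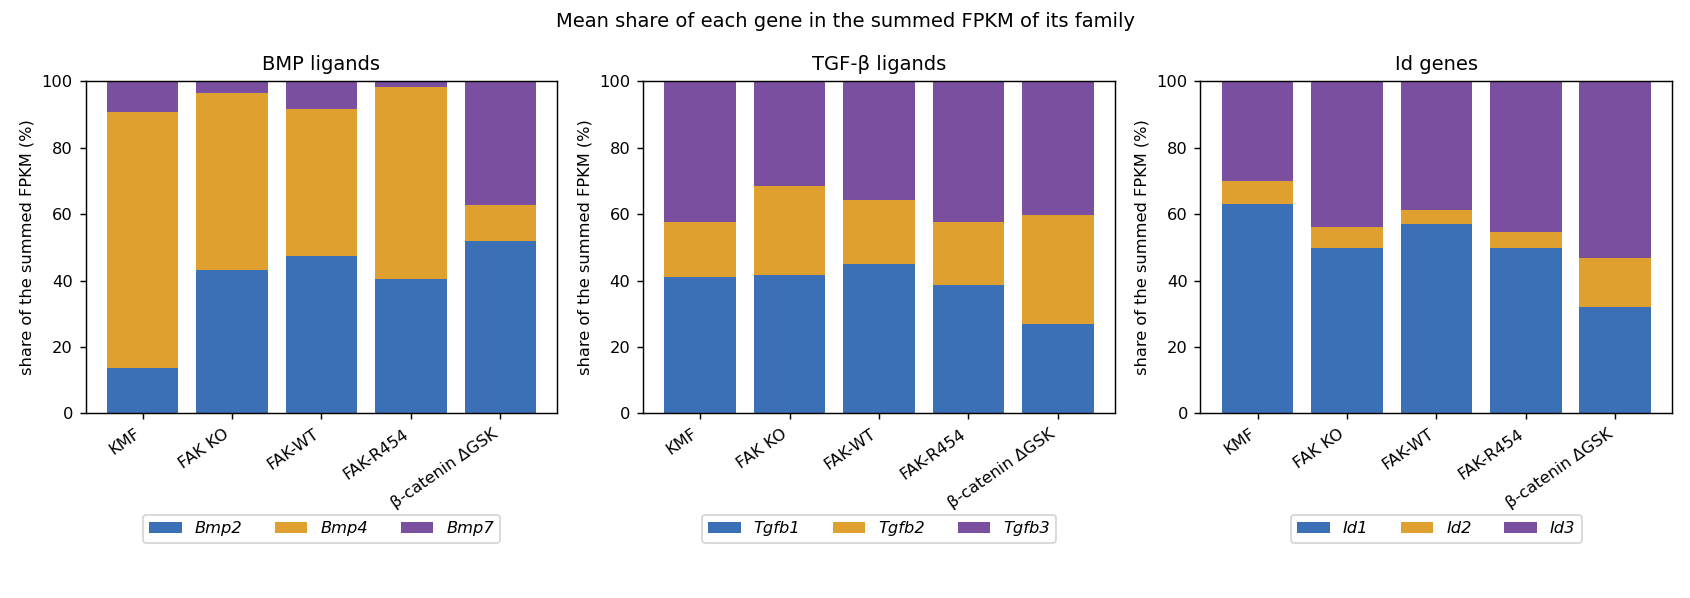
Mean share (%) of each gene in the summed FPKM of the 3 BMP ligands, the 3 TGF-β ligands and the 3 Id genes in each line, as stacked bars that add up to 100%. Bmp4 takes a mean of 77.0% of the BMP ligands in KMF and 11.05% in β-catenin ΔGSK cells, and the share of Id1 falls from 63.0% in KMF to 31.9% in β-catenin ΔGSK cells.

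Tgfb1 (ENSMUSG00000002603, chromosome 7, 25687002 to 25705077, plus strand) encodes the most widely expressed TGF-β, which is secreted in a latent complex. It was at 33.7, 34.6 and 31.3 FPKM in FAK KO cells and at 20.7, 22.4 and 19.9 FPKM in β-catenin ΔGSK cells. The β-catenin ΔGSK libraries lay below all others, and Tgfb1 fell by 0.66 on the log2 scale (SE 0.07, adjusted p = 9.22e-05, limma). All libraries of KMF cells (55.8, 54.8 and 50.5 FPKM), FAK-WT cells (47.3, 43.2 and 57.0 FPKM) and FAK-R454 cells (41.6 and 43.8 FPKM) lay above those of FAK KO cells. Tgfb1 rose by 0.69 in KMF cells (SE 0.07, adjusted p = 7.36e-05), by 0.56 in FAK-WT cells (SE 0.10, adjusted p = 0.00404) and by 0.36 in FAK-R454 cells (SE 0.07, adjusted p = 0.0101). The FAK-R454 call for Tgfb1 was lost with the replicate number as a block (adjusted p = 0.0517), without FAK KO replicate 3 (adjusted p = 0.0521) and without either FAK-R454 replicate (adjusted p = 0.0831 and 0.126). The median over all chromosome 7 genes was 0.16 above that of the other chromosomes in FAK-WT over FAK KO cells and 0.13 above it in KMF over FAK KO cells, and its part in these values of Tgfb1 was not tested beyond centring each chromosome, which kept both calls.

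Tgfb3 (ENSMUSG00000021253, chromosome 12, 86056744 to 86079041, minus strand), a TGF-β with a known part in palate closure, was at its lowest in FAK KO cells, at 24.9, 25.5 and 25.4 FPKM. It was at 57.8, 59.7 and 48.5 FPKM in KMF, 43.8, 40.1 and 33.8 FPKM in FAK-WT, 44.6 and 49.0 FPKM in FAK-R454 and 31.2, 30.9 and 31.7 FPKM in β-catenin ΔGSK cells. No library of these 4 lines reached down to the FAK KO range. Tgfb3 rose by 1.13 in KMF (SE 0.08, adjusted p = 1.43e-05, limma), by 0.89 in FAK-R454 (SE 0.07, adjusted p = 1.59e-04), by 0.63 in FAK-WT (SE 0.09, adjusted p = 0.00160) and by 0.31 in β-catenin ΔGSK cells (SE 0.06, adjusted p = 0.00203). It was the one gene of the 9 that passed the test in the same direction in all 4 comparisons, which share the FAK KO libraries.

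Tgfb2 (ENSMUSG00000039239, chromosome 1, 186623186 to 186705992, minus strand), whose latent form lacks the integrin-binding motif of Tgfb1 and Tgfb3, had similar levels across the lines. Its libraries ran from 20.04 to 22.8 FPKM in KMF, from 19.0 to 22.7 FPKM in FAK KO, from 18.3 to 22.6 FPKM in FAK-WT, from 19.98 to 21.4 FPKM in FAK-R454 and from 21.98 to 27.96 FPKM in β-catenin ΔGSK cells. Each line overlapped the next in the order of means, and the FAK-R454 and β-catenin ΔGSK libraries did not overlap. The 95% interval of the log2 fold change over FAK KO cells was -0.24 to 0.21 in FAK-WT, -0.23 to 0.18 in FAK-R454, -0.16 to 0.24 in KMF and 0.02 to 0.50 in β-catenin ΔGSK cells. In the last of these the value of 0.26 did not pass after adjustment (adjusted p = 0.0646, limma). Of 16 alternative settings for this value of Tgfb2, 5 gave an adjusted p under 0.05. The median over chromosome 1 genes was 0.25 above that of the other chromosomes in KMF over FAK KO cells and 0.32 above it in KMF over FAK-WT cells. Centring each chromosome turned Tgfb2 from 0.04 to -0.16 and from 0.06 to -0.27 there, and neither centred value passed.

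Among the 3 TGF-β genes, Tgfb1 made up 25.9% to 28.2% of their summed FPKM in β-catenin ΔGSK cells and between 38.4% and 52.2% in the libraries of the other lines. The sum itself ran from 73.5 to 79.8 FPKM in β-catenin ΔGSK, 78.4 to 81.3 FPKM in FAK KO and 119.0 to 137.4 FPKM in KMF cells.

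Inhba (ENSMUSG00000041324, chromosome 13, 16011851 to 16027211, plus strand) encodes the βA subunit, which forms activin A as a dimer and inhibin A with the product of Inha. The FAK KO libraries had 5.09, 6.70 and 5.15 FPKM and the β-catenin ΔGSK libraries 1.06, 1.25 and 0.833 FPKM. KMF cells lay between, at 2.39, 2.42 and 2.14 FPKM, and the 3 lines did not overlap. Inhba fell by 2.33 on the log2 scale in β-catenin ΔGSK cells (SE 0.17, adjusted p = 7.50e-06, limma) and by 1.24 in KMF cells (SE 0.12, adjusted p = 8.02e-05). The median over chromosome 13 genes was 0.21 below that of the other chromosomes in KMF over FAK KO cells, and Inhba passed there in all 16 alternative settings, centring of each chromosome among them.

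Inhba stood at different levels in the lines with the 2 FAK constructs, where construct and line cannot be told apart. FAK-WT cells had 3.31, 4.09 and 4.77 FPKM, below every FAK KO library, and FAK-R454 cells had 7.64 and 7.45 FPKM, above every FAK KO library. The log2 fold change over FAK KO cells was -0.47 in FAK-WT cells (SE 0.15, adjusted p = 0.0390, limma) and 0.42 in FAK-R454 cells (SE 0.13, adjusted p = 0.0498). These calls for Inhba held in 7 of 16 and in 5 of 15 alternative settings. In the direct comparison the FAK-WT cells had less Inhba than the FAK-R454 cells, by 0.89 on the log2 scale (SE 0.15, adjusted p = 0.0255), which held in 12 of 15 settings and was lost without FAK-WT replicate 2 or either FAK-R454 replicate.

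The 250 bases before the start of Inhba, the gene of the 9 tested members with the largest fall over FAK KO cells, are shown from RefSeq (GRCm38.p6, chr13:16011601-16011850, plus strand). Capitals mark the 1 match to CTTTGA, the core recognised by TCF/LEF factors, the DNA-binding partners of β-catenin, read on the opposite strand 237 bases before the start.
Inhba: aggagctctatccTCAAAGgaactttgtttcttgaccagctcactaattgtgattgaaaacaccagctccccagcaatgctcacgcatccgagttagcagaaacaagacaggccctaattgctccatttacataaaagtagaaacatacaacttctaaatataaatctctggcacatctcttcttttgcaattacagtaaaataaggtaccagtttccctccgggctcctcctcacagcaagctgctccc
CTTTGA, on either strand, occurs in 13.83% of 32851 windows of this length, and the match is a description of the sequence. Binding was not measured.

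Id2 (ENSMUSG00000020644, chromosome 12, 25093801 to 25096092, minus strand) encodes an inhibitor of E proteins that is also known for binding the retinoblastoma protein. It showed the largest tested rise of the 9 genes. It was at 45.2, 38.3 and 38.5 FPKM in β-catenin ΔGSK cells and at 7.90, 6.79 and 7.37 FPKM in FAK KO cells. The 2 sets of libraries stood far apart, and Id2 rose by 2.45 on the log2 scale (SE 0.09, adjusted p = 1.61e-07, limma), a 5.46-fold change. FAK-WT cells had 4.25, 4.93 and 4.66 FPKM, below every FAK KO library, and Id2 fell by 0.66 (SE 0.09, adjusted p = 0.00127). FAK-R454 cells at 5.87 and 6.39 FPKM and KMF cells at 6.37, 5.02 and 6.83 FPKM overlapped each other, and their log2 fold changes of -0.26 and -0.28 did not pass the test (adjusted p = 0.0878 and 0.0779).

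Of the window before the start of Id2, the 89 bases that lie outside annotated exons are shown from RefSeq (GRCm38.p6, chr12:25096254-25096342, minus strand, 250 to 162 bases before the start), because Id2 rose most among the 9 tested members. Capitals mark the 1 match to GGCGCC, a GC-rich sequence bound by BMP-responsive Smads, 231 bases before the start.
Id2: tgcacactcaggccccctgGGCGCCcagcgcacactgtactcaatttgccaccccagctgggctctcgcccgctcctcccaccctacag
GGCGCC occurs in 9.59% of the 32851 windows. Windows were matched for 6 of the 10 genes (Bmp4, Tgfb1, Tgfb2, Inhba, Id2 and Id3). CAGAC, the Smad box, was also searched on both strands. It occurs in 42.19% of all windows, with 2 matches each at Tgfb2 and Id3. The Id3 window lies wholly within annotated exons, since the RefSeq start is 325 bases into the gene as the deposited table gives it, and the windows of Bmp4 and Tgfb1 held none of the 3 sequences.

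Id3 (ENSMUSG00000007872, chromosome 4, 136143497 to 136145755, plus strand), the Id gene with the highest level in β-catenin ΔGSK cells, was at 143.7, 147.8 and 145.9 FPKM there. FAK KO cells had 49.6, 53.0 and 50.9 FPKM, FAK-WT cells 39.9, 42.9 and 45.9 FPKM, FAK-R454 cells 63.3 and 53.3 FPKM, and KMF cells 22.7, 23.6 and 30.9 FPKM. No line overlapped its neighbour in the order of means. Id3 rose by 1.51 in β-catenin ΔGSK cells (SE 0.06, adjusted p = 1.73e-07, limma) and fell by 1.00 in KMF cells (SE 0.11, adjusted p = 1.46e-04). In FAK-WT cells Id3 fell by 0.26 (SE 0.07, adjusted p = 0.0201), a call that held in 10 of 16 alternative settings and was lost when libraries were scaled by median of ratios (adjusted p = 0.0774). In FAK-R454 cells the log2 fold change was 0.18 (SE 0.08, adjusted p = 0.150).

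Id1 (ENSMUSG00000042745, chromosome 2, 152736251 to 152737410, plus strand), the member most often used as a readout of BMP signaling, varied least of the 3. It was at 80.8, 94.9 and 86.5 FPKM in β-catenin ΔGSK cells and at 55.4, 61.8 and 57.8 FPKM in FAK KO cells, and rose by 0.58 on the log2 scale (SE 0.08, adjusted p = 2.67e-04, limma). The other lines ran from 50.8 to 67.02 FPKM and overlapped the FAK KO range. For Id1 the log2 fold change was 0.11 in FAK-WT (95% interval -0.08 to 0.31, adjusted p = 0.292), 0.13 in FAK-R454 (-0.04 to 0.29, adjusted p = 0.236) and -0.12 in KMF cells (-0.29 to 0.06, adjusted p = 0.224). In FAK-WT cells Id1 passed in 2 of 16 settings, at 0.28 with each chromosome centred (adjusted p = 0.0349) and at 0.20 without FAK-WT replicate 3 (adjusted p = 0.0434).

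The order of the Id genes differed between lines. Id1 led in KMF cells with 60.9% to 64.1% of the summed Id FPKM, and Id3 led in β-catenin ΔGSK cells with 52.6% to 53.8%. Id2 took 13.6% to 16.8% of the sum in β-catenin ΔGSK cells and at most 7.86% in any other library. The sum ran from 269.7 to 280.9 FPKM in β-catenin ΔGSK cells and from 112.9 to 121.5 FPKM in FAK KO cells.

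Direct comparisons of the other lines used limma on the same scale. In β-catenin ΔGSK over FAK-WT cells, 3 of the 9 genes were higher and 4 lower, with 24.4% of 11873 genes higher and 26.4% lower (50.8% in all). Past a 2-fold difference 2 were higher and 3 lower, against 4.48% and 7.17% of all genes. Id2 rose by 3.11 (SE 0.09, adjusted p = 1.08e-07), Id3 by 1.76 (SE 0.07, adjusted p = 4.85e-07) and Id1 by 0.47 (SE 0.09, adjusted p = 0.00318). Inhba fell by 1.86, Bmp4 by 1.31, Tgfb1 by 1.22 and Tgfb3 by 0.32 (adjusted p = 7.35e-05, 2.47e-04, 3.40e-05 and 0.0205). The Tgfb3 call held in 13 of 16 settings and was lost without FAK-WT replicate 1, FAK-WT replicate 2 or β-catenin ΔGSK replicate 2 (adjusted p = 0.0711, 0.0695 and 0.0636). The 3 Id genes, Inhba, Bmp4, Tgfb1 and Tgfb3 were without overlap, as 61.6% of all genes were.

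Bmp2 overlapped between β-catenin ΔGSK and FAK-WT cells through FAK-WT replicate 3, and its log2 fold change of 0.79 did not pass (95% interval 0.03 to 1.54, adjusted p = 0.0763, limma). Without that replicate it was 1.21 (adjusted p = 8.47e-04). Tgfb2 was 0.27 (adjusted p = 0.0745).

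In FAK-WT over FAK-R454 cells, 0 of the 9 genes were higher and 2 lower, with 3.38% of 11782 genes higher and 4.44% lower by limma (7.82% in all). The count became 0 without FAK-WT replicate 2 or without either FAK-R454 replicate. Leaving out each library in turn gave 0 to 4, and the replicate number as a block gave 4. None was past a 2-fold difference, as 0.696% and 0.747% of all genes were. They were Inhba, as given above, and Id3 with a log2 fold change of -0.44 (SE 0.09, adjusted p = 0.0460), which held in 7 of 15 settings. Id2, at -0.40, lay just outside the threshold (SE 0.09, adjusted p = 0.0518), with no overlap between the lines. The 95% intervals of the rest were -0.45 to 1.51 for Bmp2, -0.45 to 0.30 for Bmp4, -0.09 to 0.48 for Tgfb1, -0.23 to 0.26 for Tgfb2, -0.54 to 0.01 for Tgfb3 and -0.23 to 0.21 for Id1. Of 9 genes, 4 did not overlap between these lines, where 48.5% of all genes did not. Bmp7, by its selection, differed by 2.12, a value that ran from 1.10 to 2.37 over the settings.

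The parental KMF cells and the FAK-WT cells differed in 3 genes that were higher and 3 that were lower in KMF cells, with 23.5% of 11847 genes higher and 18.2% lower by limma (41.6% in all). Past a 2-fold difference 0 were higher and 1 lower, against 2.11% and 3.82%, and 6 did not overlap, against 55.5%. Bmp2 fell by 2.08 (SE 0.34, adjusted p = 0.00276), Inhba by 0.77 (SE 0.14, adjusted p = 0.00404) and Id3 by 0.75 (SE 0.12, adjusted p = 0.00263). Tgfb3 was higher by 0.50 (SE 0.11, adjusted p = 0.0117), Bmp4 by 0.47 (SE 0.14, adjusted p = 0.0342) and Id2 by 0.38 (SE 0.12, adjusted p = 0.0415). The calls for Bmp4 and Id2 held in 11 and in 6 of 16 settings. Tgfb1, at 0.14, did not pass (95% interval -0.11 to 0.38, adjusted p = 0.327).

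The other genes of the pathway were counted from lists by role, in β-catenin ΔGSK over FAK KO cells first. Over all genes of that comparison 23.7% were higher and 34.4% lower, with a median log2 fold change of -0.09, and the lists were not tested as sets. A gene with a mean above 1 FPKM in only 1 of the 2 lines entered through that line, which fixed its direction, so its values are a description with no p and the counts are given without such genes. That way of counting was chosen after the data were seen. Of 23 other ligands, 6 were above 1 FPKM in both lines, and 1 was higher and 4 lower, with a median log2 fold change of -0.79. Bmp6, a close relative of Bmp7, ran from 17.0 to 20.1 FPKM in β-catenin ΔGSK and from 0.385 to 0.621 FPKM in FAK KO libraries. Its fitted difference was 5.02 and ran from 3.70 to 5.28 over the alternative settings. Gdf6, a ligand of joint and eye development, had 12.5 to 15.5 FPKM in FAK KO and 0.0770 to 0.156 FPKM in β-catenin ΔGSK libraries, a fitted difference of -6.02 that ran from -6.87 to -3.75 over the alternative settings. These 2 ligands entered through 1 line each. Inhbb, the βB activin subunit, fell by 2.23 (adjusted p = 6.09e-06, limma), as Inhba did. Bmp8a fell by 1.49 (adjusted p = 5.67e-05), with the caution that fragments of its near copy Bmp8b can be assigned to it. Gdf15, a distant relative induced by stress, rose by 0.29 (adjusted p = 0.0443), which was lost in 7 of 16 settings. Gdf15 fell by 1.25 in KMF cells and by 0.69 in FAK-R454 cells over FAK KO cells (adjusted p = 1.46e-04 and 0.00295), calls that held in all 16 and all 15 settings.

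Of 16 receptors and co-receptors, 12 were above 1 FPKM in both lines, and 3 were higher and 6 lower (median -0.25). Tgfbr1 and Tgfbr2, the type I and type II TGF-β receptors, fell by 1.504 and 1.19 (adjusted p = 2.26e-05 and 5.63e-07, limma), Tgfbr2 from between 81.1 and 84.2 FPKM to between 36.1 and 36.3 FPKM. Amhr2, the receptor of anti-Müllerian hormone, which signals through the BMP Smads, rose by 1.66 (adjusted p = 1.05e-05), from between 117.6 and 142.7 FPKM to between 364.96 and 509.9 FPKM. Of 11 Smads and Smad regulators, 10 were above 1 FPKM in both lines, and 3 were higher and 6 lower (median -0.30). Smad9 was at or below 0.0743 FPKM in FAK KO and between 2.15 and 2.41 FPKM in β-catenin ΔGSK libraries, and entered through the latter. Its fitted difference was 3.86 and ran from 1.63 to 5.11 over the settings. Smad6, which inhibits BMP receptors, rose by 1.92 (adjusted p = 8.43e-07), and Smurf1, a ubiquitin ligase that acts on BMP Smads, fell by 1.06 (adjusted p = 7.39e-06).

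Of 16 secreted or membrane antagonists, 8 were above 1 FPKM in both lines, and 2 were higher and 4 lower (median -0.44). Chrd, Chrdl2 and Bmper, whose products bind BMPs, fell by 1.97, 2.98 and 1.66 (adjusted p = 2.48e-06, 1.22e-05 and 3.47e-04, limma). Sost, sclerostin, entered through FAK KO cells, with a fitted difference of -3.60 that ran from -4.70 to -1.58 over the settings. Fst, which encodes follistatin, an antagonist best known for binding activin, ran from 1.58 to 2.03 FPKM in FAK KO and from 15.4 to 23.01 FPKM in β-catenin ΔGSK libraries, and rose by 3.40 (adjusted p = 5.49e-07). In the same cells Inhba and Inhbb fell, as given above. Of 12 genes of TGF-β latency and activation, 8 were above 1 FPKM in both lines, and 0 were higher and 4 lower (median -0.37). Itgb8, an integrin chain that activates latent TGF-β, fell by 1.75, Bmp1, a procollagen protease and not a BMP ligand, by 1.22, and Thbs1, thrombospondin-1, by 1.02 (adjusted p = 1.07e-05, 9.59e-06 and 2.72e-04).

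**Figure D4:**
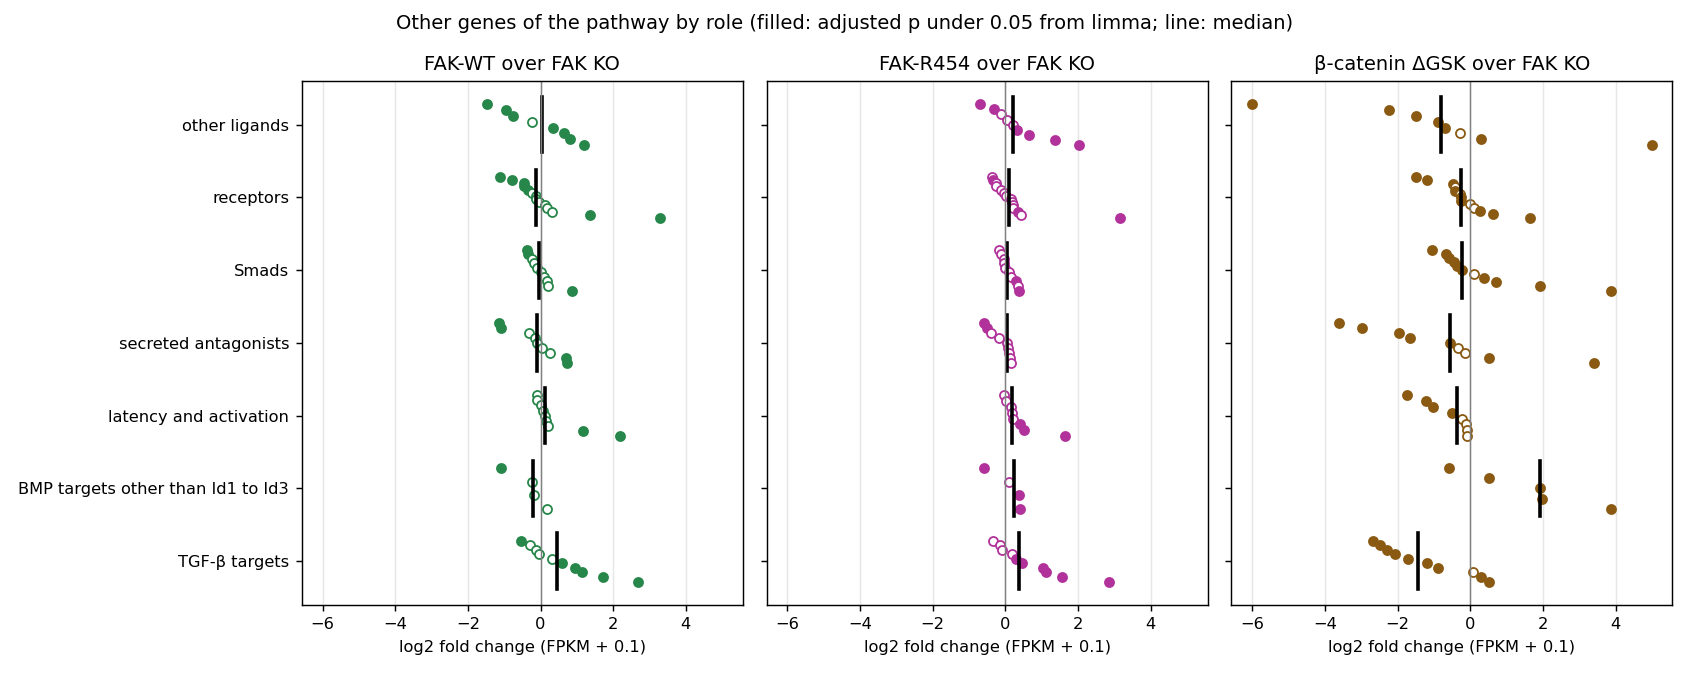
Log2 fold change (FPKM + 0.1) over FAK KO cells of the other genes of the pathway, by role, in β-catenin ΔGSK cells and in cells with FAK-WT or FAK-R454, with filled points for an adjusted p under 0.05 from limma and a black line for the median of each list. In β-catenin ΔGSK cells the BMP target list has a median of 1.92 (1.22 without Smad9, which entered through that line) and the TGF-β target list a median of -1.45 (-1.19 without Col1a1, which entered through FAK KO cells), and for the FAK-expressing lines the TGF-β target medians are 0.45 and 0.38.

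In the same comparison, where 23.7% of all genes were higher and 34.4% lower with a median of -0.09, the targets were counted without a test of the lists. Of 9 BMP targets other than Id1 to Id3, 4 were above 1 FPKM in both lines, and 3 were higher and 1 lower, with a median log2 fold change of 1.22. Atoh8, a bHLH factor induced by BMPs, ran from 6.95 to 8.44 FPKM in FAK KO and from 28.9 to 32.3 FPKM in β-catenin ΔGSK libraries, and rose by 1.98 (adjusted p = 4.33e-07, limma). Smad6 and Smad7 of this list were also counted among the Smads above, and Bambi, a decoy receptor, among the antagonists. Bambi rose by 0.53 (adjusted p = 0.00144). The 1 lower gene was Smad7, at 10.5 to 12.1 FPKM in β-catenin ΔGSK libraries against 15.8 to 18.2 FPKM in FAK KO libraries. Of 11 TGF-β targets, 9 were above 1 FPKM in both lines, and 2 were higher and 6 lower, with a median of -1.19.

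Pmepa1, a feedback inhibitor of TGF-β signaling, ran from 7.27 to 8.94 FPKM in FAK KO and from 1.19 to 1.54 FPKM in β-catenin ΔGSK libraries, and fell by 2.48 (adjusted p = 9.47e-07, limma). In the same cells Snai1, a transcription factor of epithelial to mesenchymal transition, fell by 2.06 (adjusted p = 3.68e-06) and Skil, a repressor of Smads, by 1.70 (adjusted p = 1.26e-05). Fn1, fibronectin, rose by 0.50 (adjusted p = 0.0257), a call lost in 3 of 16 settings. Col1a1, a collagen chain, entered through FAK KO cells, and its fitted difference of -2.28 ran from -2.80 to -0.95 over the settings. The summed level of 4 stromal markers, of which Dcn gave most and Lum and Pdgfrb were at or near 0, ran from 30.5 to 45.0 FPKM in β-catenin ΔGSK and from 89.1 to 125.1 FPKM in FAK KO libraries, and Pdgfra, another of the 4, ran from 0.765 to 0.863 FPKM and from 2.65 to 3.25 FPKM. The endothelial marker Tek ran from 6.29 to 7.25 FPKM in β-catenin ΔGSK libraries against 16.6 to 18.1 FPKM in FAK KO libraries, and Pecam1 from 0.168 to 0.435 FPKM against 0.789 to 1.17 FPKM, with Cdh5 and Kdr at or near 0. The part of these markers in the TGF-β target values was not tested.

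The FAK-expressing lines gave other TGF-β target values relative to FAK KO cells. Of the 10 tested, 5 were higher and 1 lower in FAK-WT cells (median 0.45), and 6 were higher and 0 lower in FAK-R454 cells (median 0.38). Over all genes 15.6% were higher and 25.2% lower in FAK-WT cells (median -0.08), and 9.78% and 9.89% in FAK-R454 cells (median -0.03). Col1a1 rose by 2.70 in FAK-WT (adjusted p = 1.14e-04, limma) and by 2.86 in FAK-R454 cells (adjusted p = 1.42e-04). Fn1 rose by 1.73 and 1.55 (adjusted p = 6.77e-04 and 1.35e-04), and Snai1 by 0.96 and 1.03 (adjusted p = 0.00145 and 6.53e-04). FAK-WT replicate 3 stood above the other FAK-WT libraries for each of these genes, with Fn1 at 270.0 FPKM against 146.6 and 158.3 FPKM. Over the alternative settings the FAK-WT value of Fn1 ran from 1.46 to 1.90. Between FAK-WT and FAK-R454 cells 0 of the 10 passed limma's test and 2 had an unadjusted p under 0.05, with a median of -0.10, where 7.82% of all genes passed and the median over all genes was -0.05. The summed stromal markers ran from 115.5 to 133.6 FPKM in FAK-WT and from 110.5 to 122.7 FPKM in FAK-R454 cells. Among them Pdgfra was higher than in FAK KO cells along with Col1a1 and Fn1, at 8.19 to 11.7 FPKM in FAK-WT and 8.84 to 8.91 FPKM in FAK-R454 cells against 2.65 to 3.25 FPKM, and the part of these markers in the values was not tested.

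Of the BMP targets, 4 were tested in each of these comparisons, whose shares over all genes were 15.6% higher and 25.2% lower in FAK-WT and 9.78% and 9.89% in FAK-R454 cells. In FAK-WT cells 0 were higher and 1 lower (median -0.20), Bambi, which fell by 1.08 (adjusted p = 9.79e-04, limma). In FAK-R454 cells 2 were higher, Smad6 by 0.39 and Atoh8 by 0.41 (adjusted p = 0.0387 and 0.0214), and 1 lower (median 0.24). Both of those rises were lost in some settings, Smad6 in 4 and Atoh8 in 5 of 15. The 2 higher became 0 without either FAK-R454 replicate and 1 without FAK KO replicate 3, and the 1 lower became 0 without FAK-R454 replicate 2. In FAK-WT cells the 1 lower became 3 without FAK-WT replicate 3.

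Among the upstream genes, Rgma, a BMP co-receptor, ran from 0.349 to 0.648 FPKM in FAK KO, from 4.36 to 10.01 FPKM in FAK-WT, from 5.21 to 5.71 FPKM in FAK-R454 and from 7.23 to 8.02 FPKM in KMF libraries. It entered through the last 3 lines, with fitted differences of 3.30 (2.21 to 3.54 over the settings), 3.15 (2.07 to 3.37) and 3.61 (2.48 to 3.84). In β-catenin ΔGSK cells Rgma was between 0.226 and 0.637 FPKM. Tgfbr3, the betaglycan co-receptor, rose by 1.35 in FAK-WT (adjusted p = 3.44e-05, limma) and was 0.20 in FAK-R454 cells (adjusted p = 0.139), and the direct comparison of these lines gave 1.15 (adjusted p = 0.00357). Tgfbr1 fell by 0.78 in FAK-WT cells (adjusted p = 3.47e-04) and Gdf6 by 1.47 (adjusted p = 2.44e-04), where FAK-R454 cells gave -0.26 and 0.05 (adjusted p = 0.0967 and 0.708). Acvrl1, a type I receptor for BMP9 best known from endothelium, ran from 0.490 to 0.747 FPKM in FAK-WT libraries against 1.35 to 1.37 FPKM in FAK KO libraries. It entered through FAK KO cells, and its fitted difference of -1.13 ran from -1.43 to -0.59. Thbs1 rose by 1.18 in FAK-WT and by 1.63 in FAK-R454 cells (adjusted p = 1.21e-04 and 6.82e-05). Lrrc32, which tethers latent TGF-β to the cell surface, ran from 0.773 to 1.28 FPKM in FAK-WT libraries against at most 0.183 FPKM in FAK KO libraries. It entered through FAK-WT cells, and its fitted difference of 2.20 ran from 0.82 to 2.79. Bmp6 had fitted differences of 1.20 in FAK-WT cells (0.58 to 1.37 over the settings) and 1.38 in FAK-R454 cells (0.69 to 1.56). Bmp5, close to Bmp6 in sequence, ran from 0.991 to 1.03 FPKM in FAK-R454 libraries against at most 0.252 FPKM in FAK KO libraries, a fitted difference of 2.02 (0.77 to 2.53). Both entered through the line with FAK. The level of Bmp5 was also above the FAK KO range in FAK-WT (0.816 to 0.916 FPKM) and KMF libraries (0.562 to 0.783 FPKM), where its mean was under the filter.

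In KMF over FAK KO cells 8 antagonists were above 1 FPKM in both lines, and 5 were higher and 2 lower (median 0.31), where 23.1% of all genes were higher and 28.7% lower (median -0.05). Grem1, gremlin, which binds Bmp2, Bmp4 and Bmp7, ran from 1.44 to 1.86 FPKM in KMF and from 0.0277 to 0.0801 FPKM in FAK KO libraries. It entered through KMF cells, and its fitted difference of 3.55 ran from 1.32 to 5.08 over the settings. Chrdl2 fell by 2.38 (adjusted p = 8.15e-07, limma), and Sost, which entered through FAK KO cells, had a fitted difference of -2.93 (-3.42 to -1.44). Gdf6 (1.33 to 1.47 FPKM in KMF cells) fell by 3.23 (adjusted p = 2.10e-07), Inhbb rose by 1.06 (adjusted p = 3.83e-05) where Inhba fell, and Bmp6, which entered through KMF cells, had a fitted difference of 1.89 (1.04 to 2.19). Of the TGF-β targets, 7 of 10 were higher and 1 lower (median 0.52), with Pmepa1 higher by 1.35 (adjusted p = 6.12e-06). The summed stromal markers ran from 39.3 to 47.3 FPKM in KMF against 89.1 to 125.1 FPKM in FAK KO cells, while Pdgfra was at 8.25 to 10.2 FPKM against 2.65 to 3.25 FPKM and Tek, an endothelial marker, at 28.7 to 28.8 FPKM against 16.6 to 18.1 FPKM, and their part in these values was not tested. Of the 4 BMP targets tested, 1 was higher and 2 lower (median -0.34). Of the E protein and bHLH partners of the Id proteins, 3 of 4 were tested. In β-catenin ΔGSK cells, where the Id genes rose, 1 of them was higher (Tcf12, 0.27, named after its value was seen) and 0 lower, where 23.7% of all genes were higher and 34.4% lower.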

How the data were processed

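RNA of 14 tumorsphere samples of 5 mouse lines was sequenced as paired-end libraries of poly(A)-enriched RNA. The authors deposited FPKM per gene for each sample, with mm10 gene coordinates. The study's methods name TopHat2 for mapping, the submitters' processing notes name CASAVA 1.8, STAR 2.5, DESeq2 and mm10, and neither gives the annotation or strand setting, so antisense reads cannot be separated. The methods describe 3 FAK-R454 samples, of which 2 were analysed here. FPKM was used as deposited. Multiplied by gene length and divided by the step of each library it gave whole fragments for 100% of values (tolerance 0.01), which were used for depth and for 1 alternative test.

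Lines were compared with limma 3.58.1 (R 4.3.3, lmFit and eBayes with trend, two-sided) on log2(FPKM + 0.1) of the samples of 2 lines, over genes with a mean FPKM above 1 in at least 1 of them, with Benjamini-Hochberg adjustment over all of these. The procedure was tested on simulated data, with independent libraries and the same spread setting for every gene. That test gives no error rate for the calls made here. The 10 genes and the lists by role were chosen with earlier results of these data known. Named were all 10 genes, from each list at most 6 genes that passed in a comparison with FAK KO cells past a 2-fold difference (largest first), the 3 genes most like Bmp7, and Ptk2 and Ctnnb1. Tcf12 and Smad7 fall outside this rule. Of the marker lists, Adgre1 was not analysed here, and 1 gene that the rule selects is not reported here. Replicate numbers recur in the lines, but correlations of same-numbered samples did not all exceed 0.1 in any comparison, so no pairing was used. In β-catenin ΔGSK over FAK KO they were 0.45, 0.28 and 0.08 for replicates 1, 2 and 3, so a shared replicate effect is not excluded there. Promoter sequences came from RefSeq (GRCm38.p6). Alternatives changed the pseudocount, filter, scaling, variance model, samples in the fit, test, fold threshold and chromosome centring, added the replicate number as a block, or left out 1 sample. Running them also on the other pathway genes was decided after the data were seen.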

Additional observations from a re-analysis of the deposited data

How the results depend on the processing

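The count of members that passed limma's test, of 9, was 8 in β-catenin ΔGSK over FAK KO, 7 in FAK-WT over FAK KO, 6 in KMF over FAK KO, 4 in FAK-R454 over FAK KO, 2 in FAK-WT over FAK-R454, 7 in β-catenin ΔGSK over FAK-WT and 6 in KMF over FAK-WT. Of 117 alternative counts, 97 stayed within 1.5 times. With a log2 fold change of at least 1 added, the counts of members were 4, 0, 5, 0, 0, 5 and 1 in the same order. With the replicate number as a block, FAK-R454 over FAK KO gave 2 members and FAK-WT over FAK-R454 gave 4. In all, the block lost 3 and gained 5 calls of single members, and same-numbered samples shared only a number. For members in FAK-WT over FAK-R454, no filter, median-of-ratios scaling, no trend and chromosome centring gave 1 each. Leaving out 1 library gave 8 to 9 members, 4 to 8, 6 to 8, 2 to 6, 0 to 4, 6 to 8 and 4 to 7 in the order above. The low counts came without FAK KO replicate 3 in FAK-WT over FAK KO (4 members), without FAK KO replicate 3 or either FAK-R454 replicate in FAK-R454 over FAK KO (2 members), and without FAK-WT replicate 2 or either FAK-R454 replicate in FAK-WT over FAK-R454 (0 members).

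Of 1079 values of single members, the untested values of Bmp7 included, 945 were counted as the same. For the tested genes this meant the same direction and side of the threshold. A further 63 were classed as weaker, 32 as stronger and 17 as moved. The other 22 changed sign, 0 of them of a gene that had passed. In FAK-WT over FAK KO, Tgfb2 became 0.051 with median-of-ratios scaling and 0.12 with chromosome centring, and leaving out 1 library gave -0.090 (FAK KO replicate 2) to 0.078 (FAK-WT replicate 3). In FAK-R454 over FAK KO, Tgfb2 became 0.029 with centring and ran from -0.10 (without FAK KO replicate 2) to 0.024 (without FAK KO replicate 1). In KMF over FAK KO, Tgfb2 became -0.16 with centring and ran from -0.034 (without FAK KO replicate 2) to 0.098 (without KMF replicate 3). In FAK-WT over FAK-R454, Tgfb2 ran from -0.042 (without FAK-WT replicate 1) to 0.11 (without FAK-WT replicate 3). In KMF over FAK-WT, Tgfb2 became -0.27 with centring and ran from -0.037 (without FAK-WT replicate 3) to 0.11 (without KMF replicate 3). In FAK-WT over FAK-R454, Id1 became 0.031 with median-of-ratios scaling and 0.073 with the block or with centring, and ran from -0.066 (without FAK-R454 replicate 2) to 0.073 (without FAK-WT replicate 3). Bmp4 became 0.033 with centring there and ran from -0.23 (without FAK-WT replicate 3) to 0.044 (without FAK-WT replicate 1). The cause of these changes was not tested. Median-of-ratios scaling moved the median of all genes by 0.10 in β-catenin ΔGSK over FAK KO. Of 70 calls of named pathway genes above 1 FPKM in both lines, 55 held in every alternative run, 15 were lost in at least 1 and 0 changed sign. With 2 or 3 libraries a line, the intervals are wide, and a value that did not pass is not shown to be 0. Fold changes of genes under about 1 FPKM depend on the pseudocount.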
